A study of Mus musculus with 9 samples.

Results

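The genes described here are 36 named genes of the interferon response and of class I antigen presentation, chosen by their symbols, and for 32 of them the array held a probe set annotated to that gene alone, out of 18193 genes measured in all. Isg15, H2-T23 and Psme2 lay only on probe sets annotated to several genes, and no probe set carried the symbol Ifi44, so these 4 members were not analysed here. Where a member had several probe sets, the one with the highest mean log2 signal over the arrays stood for it, which concerned 14 members. The measured members fall into 4 transcription factors, 15 antiviral effectors, 4 sensors or members of the ubiquitin-like system, 3 class I chains, 3 peptide loading genes and 3 immunoproteasome genes.

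Type I and type II interferons are secreted proteins that signal through receptor-bound JAK kinases to STAT transcription factors, and with IRF9 these bind interferon-stimulated response elements (ISRE) in the promoters of antiviral genes. The same signals raise the class I antigen presentation machinery, in which the proteasome cuts proteins to peptides, TAP carries them into the endoplasmic reticulum and tapasin helps load them onto a heavy chain paired with beta-2-microglobulin. Neural stem cells carry a part of this response at a low level without infection, and in tumours class I display is what cytotoxic T cells read.

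The 9 arrays cover 3 groups of 3. Nf1flox/flox pups at postnatal day 1 were the source of both sets of neural stem cells (NSC), taken from the third ventricle. Those called wild-type here had received LacZ virus as the control, and those called Nf1-null had received Cre virus, so both carry floxed alleles and a viral transduction. Nf1+/-GFAP CKO mice, aged 3 months, gave the glioma stem cells (GSC), grown in culture out of optic gliomas with optic nerve as the recorded tissue source. GFAP is a gene of the astroglial lineage. All are labelled C57BL/6 and grew in low-attachment dishes with N2, B27, FGF and EGF, the factors at 20 ng/ml. GSC therefore differ from NSC in age, tissue of origin, genotype and the absence of a recorded virus, which cannot be told apart here. The labels speak of independent cultures for the NSC only, so the spread between the GSC arrays may be technical. The p-values rest on a spread estimate for each gene that is pooled over the 3 groups. In comparisons with GSC they may therefore mix technical spread with spread between cultures.

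Nf1 itself gave signals of 1139.5, 919.5 and 999.9 on the wild-type arrays, 430.3, 646 and 577 on the Nf1-null arrays and 623, 600.1 and 549 on the GSC arrays. All 6 arrays of the Nf1-null and GSC groups lay below all 3 wild-type arrays, with a log2 difference of -0.90, SE 0.19, adjusted p = 0.123 between the NSC groups and a log2 difference of -0.78, SE 0.19, adjusted p = 0.0441 for GSC against wild-type NSC. Of 11 measured markers of neural stem and progenitor cells, 11, 11 and 10 were brighter than the median gene in wild-type NSC, Nf1-null NSC and GSC. In GSC against wild-type NSC 3 of the 11 passed (27.3%), where 9.06% of all genes did. Hes1 rose by 0.88 on the log2 scale, and Msi1 and Slc1a3 differed by -1.12 and -1.14 (limma adjusted p = 0.0367, 0.0337 and 0.0472). For 7 markers (63.6%) the arrays of these groups did not overlap, 4 with GSC above and 3 below, where 34.8% of all genes did so. The array number limits the precision throughout, and an exact permutation test of 3 against 3 arrays cannot give a p below 0.1.

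Cells of other types could carry interferon-related transcripts, so their markers were read on the same arrays. The summed signal of 22 microglia and macrophage markers reached 2552 to 3333 on wild-type arrays, 2929 to 4437 on Nf1-null arrays and 3257 to 8154 on GSC arrays. The rise in that sum followed Pf4, a platelet and macrophage chemokine gene (signals of 175, 180.0 and 119.8 on the wild-type arrays, 690.4, 1571 and 799 on the Nf1-null arrays and 959.9, 2902 and 5114 on the GSC arrays), while C1qa stayed at or below 19.9, Ptprc at or below 67.3 and Aif1 at or below 98.5 on every array. Other markers of that list were brighter, with Csf1r at 238.1 to 371.7, Laptm5 at 163.8 to 435.8 and Cd68 at 183.7 to 411.4 over the 9 arrays, and Lyz2 at up to 171.0 on NSC arrays and 412.0 on a GSC array. The summed signal of 14 endothelial markers was 2026 to 2490, 5587 to 8674 and 9314 to 11317 in the same order, carried by Plvap and Cd93. Pecam1 did not exceed 189.8, Cdh5 123.6, Cldn5 82.7 and Tie1 52.0 on any array, while Flt1 reached 630.3, Egfl7 440.5 and Kdr 414.2. T, NK and B cell markers summed to 367.3 to 587.4, 582.2 to 808.9 and 636.6 to 726.7, and dendritic cell and granulocyte markers to 1169 to 1518, 838.8 to 1379 and 721.1 to 856.0. The neural lists also differed between the groups. Markers of astrocytes (8 measured) summed to 187116 to 234524 on wild-type, 79329 to 155514 on Nf1-null and 81997 to 100702 on GSC arrays. Of them Aqp4, a water channel, Aldh1l1, an enzyme of folate metabolism, and Gja1, a gap junction protein, fell in GSC, by 7.26, 6.66 and 3.23 on the log2 scale against wild-type NSC (limma adjusted p = 0.0053, 0.002 and 0.0096). S100b went the other way, with every GSC array above every NSC array. It did not pass against wild-type NSC (log2 difference 1.95, SE 0.54, limma adjusted p = 0.0656). Slc1a2 and Aldoc overlapped between GSC and wild-type arrays. Of the 8 markers, 7 had a negative difference in GSC against wild-type NSC and 1 a positive one. Markers of the oligodendrocyte lineage (10 measured) summed to 152013 to 206783, 85318 to 131527 and 147365 to 204255 in the same order, those of neurons (8) to 5799 to 9569, 2539 to 3746 and 5532 to 8257, and those of pericytes and fibroblasts (11) to 11674 to 15046, 1614 to 5753 and 6711 to 19033. On these last 3 lists every Nf1-null array lay below every array of both other groups. The pericyte and fibroblast sum was carried by Pdgfra and Cspg4, which are also on the oligodendrocyte lineage list. No other pericyte or fibroblast marker exceeded 243.5 (Col1a2) on any array, and Pdgfrb stayed at or below 68.1. The ratio of 3' to 5' Actb signal ran from 1.87 to 1.88 on wild-type arrays, 1.49 to 1.67 on Nf1-null arrays and 1.73 to 1.85 on GSC arrays. In such bulk samples, fewer cells of a type and less RNA per cell cannot be told apart. The part of these marker differences and of this ratio in the results that follow was not tested.

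**Figure D1:**
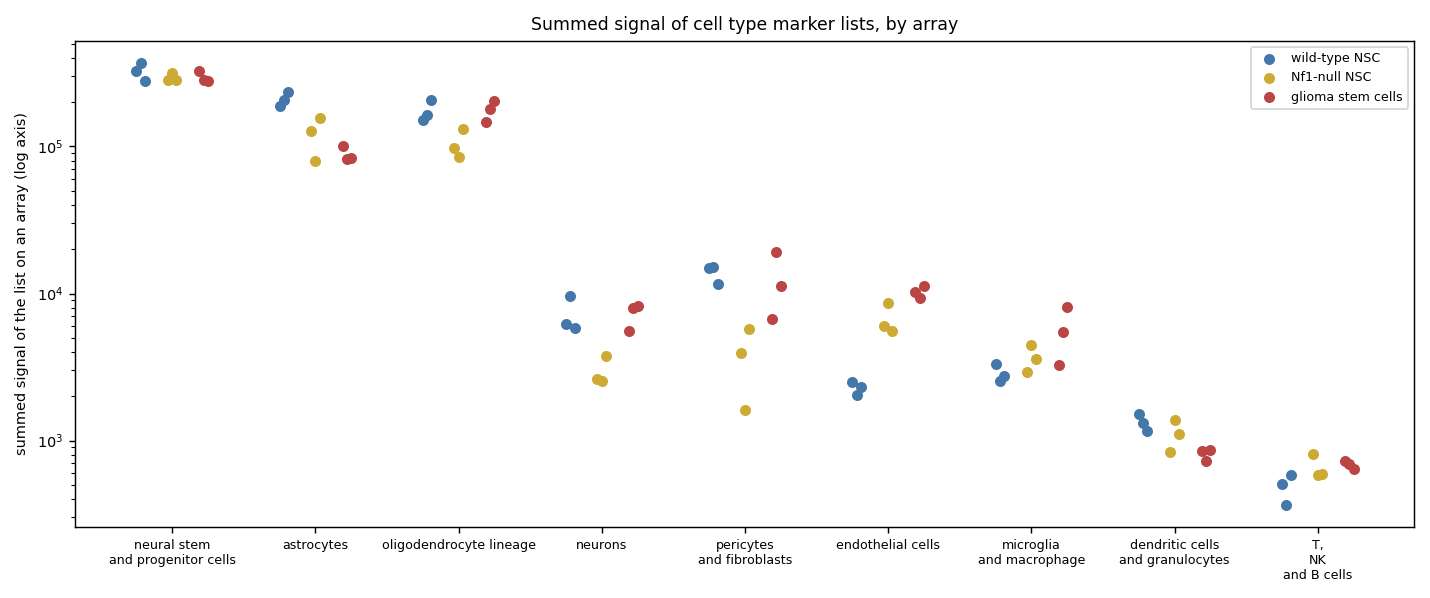
Summed signal of 9 cell type marker lists on each array, on a log axis, with 1 point per array and a colour per group. The neural stem and progenitor sum overlaps between the groups, at 276691 to 370646 over all arrays, though single markers of that list differ. The endothelial sum is lowest on the 3 wild-type arrays, and the astrocyte sum is highest there.

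Across the programme the groups differed by a few strong changes in both directions and not by a shift of the whole list. Against wild-type NSC, GSC had 8 of 32 members past an adjusted p of 0.05 (limma across all genes, Benjamini-Hochberg), where 9.06% of all genes passed. B2m, Ifi27, Ifi35 and Tap1 rose and Gbp2, H2-K1, Mx2 and Tapbp fell, and the corresponding shares over all genes were 3.46% higher and 5.6% lower. The median member difference was -0.11 on the log2 scale beside -0.09 over all genes, with 16 members higher and 16 lower. The 3 GSC arrays lay wholly apart from the 3 wild-type arrays for 14 members (43.8%), 6 above and 8 below, where 34.8% of all genes did so, 13.9% above and 20.9% below. At an unadjusted p under 0.05 the shares were 37.5% of members and 26.3% of all genes.

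Against Nf1-null NSC, GSC had 4 of 32 members past the threshold (12.5%), where 1.75% of all genes passed, 0.671% higher and 1.08% lower. B2m and Ifi27 rose, and Gbp2 and H2-K1 fell. The median member difference was -0.11 beside -0.04 over all genes. For 14 members (43.8%) the arrays of both groups did not overlap, 8 with GSC above and 6 below, where 21.9% of all genes did so, 9.24% above and 12.7% below. At an unadjusted p under 0.05 the shares were 37.5% of members and 16.5% of all genes. This comparison and the preceding one share the GSC arrays.

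Between Nf1-null and wild-type NSC, 0 of 32 members passed, as did 0 of all genes (0%, 0% higher and 0% lower). At an unadjusted p under 0.05 by the same limma fit there were 4 members (12.5%) where 16.8% of all genes reached it, and fits with a mean-variance trend called 1 member, Ifitm2. The arrays of both NSC groups did not overlap for 6 members (18.8%), 3 higher and 3 lower in Nf1-null cells, where 23.8% of all genes did so, 9.75% higher and 14.1% lower. The median member difference was -0.03 beside -0.06 over all genes.

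The number called in GSC rests on few arrays. Against wild-type NSC it was 8 with all arrays, 1 (Gbp2) without GSC array 2 and 1 (Gbp2) without GSC array 3, and 4, 3 and 4 without wild-type arrays 1, 2 and 3. Against Nf1-null NSC it was 4 with all arrays, 1 (Gbp2) without GSC array 2, and 2 without GSC array 3, without any 1 of the 3 Nf1-null arrays, and without wild-type array 2 or 3. On single arrays the members' median, relative to the wild-type mean, was -0.45 on GSC array 1 and 0.05 and 0.17 on GSC arrays 2 and 3. Without GSC array 1 the median member difference became 0.15 against wild-type and 0.11 against Nf1-null NSC. With a block for the replicate number in the NSC arrays, an alternative added after seeing the data, the counts were 6 against wild-type and 2 against Nf1-null NSC. The share of all genes called under each of these settings is not given here, and fewer arrays lower the precision for every gene.

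**Figure D2:**
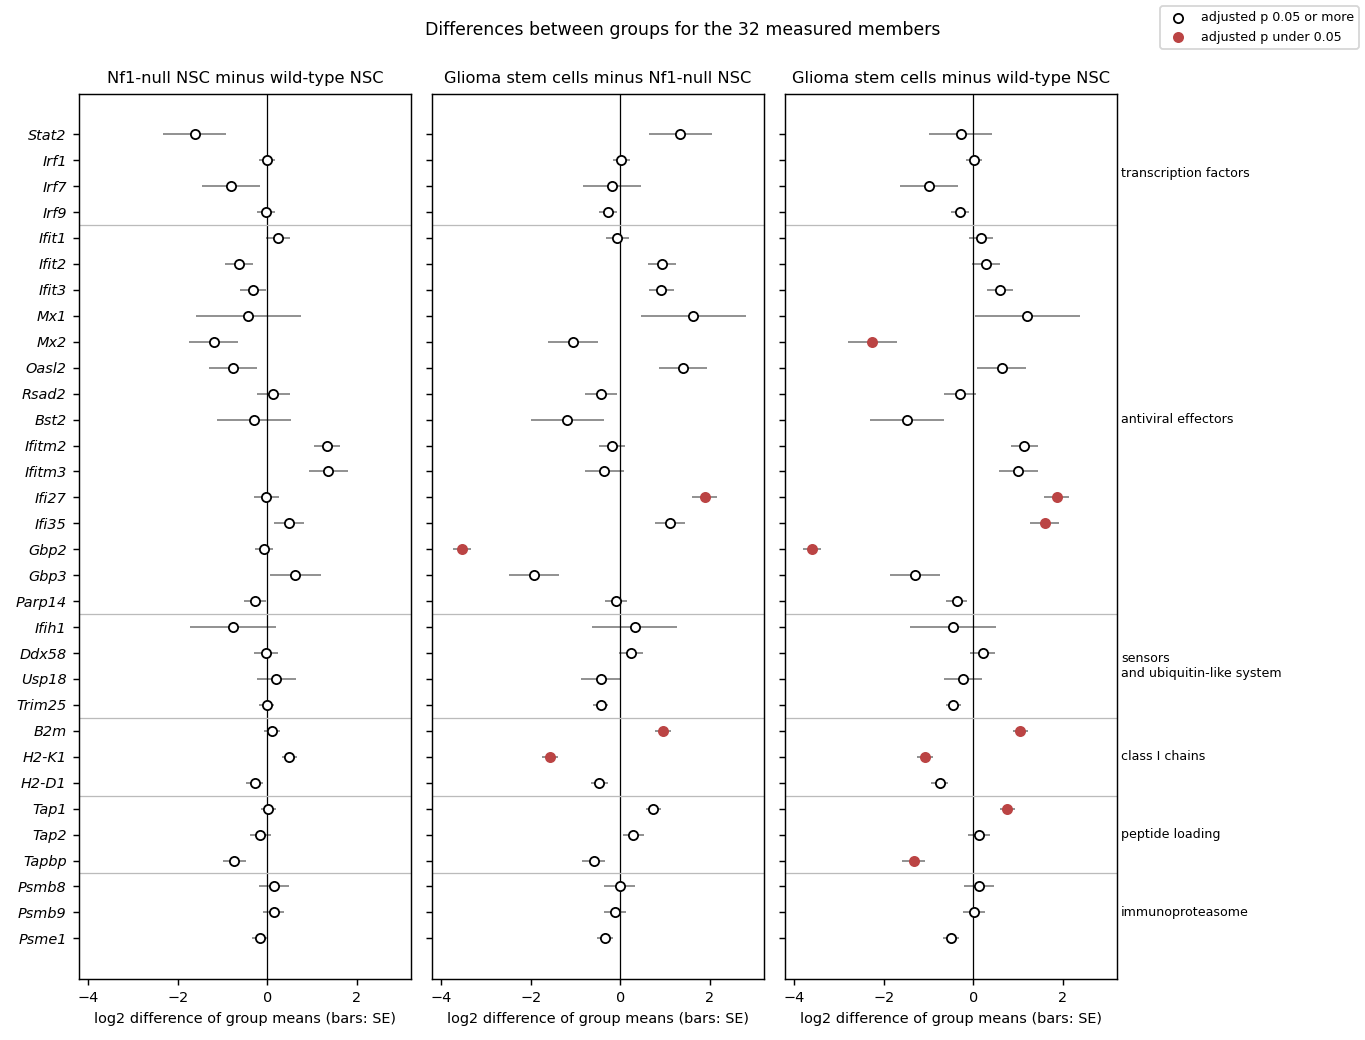
Log2 difference of group means (x axis, bars are moderated standard errors) for the 32 measured members in rows by role, with 1 panel per comparison. Filled points passed an adjusted p of 0.05: none between the NSC groups, 4 between GSC and Nf1-null NSC and 8 between GSC and wild-type NSC, to both sides of 0.

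The transcription factors that carry the interferon signal to DNA did not pass the test in any comparison. Stat2, which works with IRF9 in the factor that binds the ISRE, gave signals of 213, 173 and 133 on the wild-type arrays, 106, 102 and 14.5 on the Nf1-null arrays and 113, 143 and 168.5 on the GSC arrays. The Nf1-null arrays lay below both other groups, and array 3 was far below the rest of its group (log2 difference -1.62, SE 0.70, adjusted p = 0.301). A second Stat2 probe set differed by -0.29 in the same comparison. Irf7, which amplifies the type I response, gave signals of 301, 170.3 and 180.5 on the wild-type arrays, 38.6, 238 and 182 on the Nf1-null arrays and 75.4, 119 and 127.5 on the GSC arrays. GSC lay below the wild-type arrays without overlap but within the range of the Nf1-null arrays (log2 difference -0.996, SE 0.65, adjusted p = 0.376 against wild-type). Irf1, an early factor of the type II response, and Irf9, the DNA-binding part of the ISRE factor, differed between GSC and wild-type NSC by 0.02 and -0.30 on the log2 scale, with overlapping arrays.

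The guanylate-binding proteins, GTPases that attack the membranes around intracellular pathogens, gave the largest fall of any member. Gbp2 signals were 559.8, 882 and 683 on the wild-type arrays, 642, 706.5 and 633 on the Nf1-null arrays and 52.3, 65.4 and 51.7 on the GSC arrays. The highest GSC array lay far below the lowest NSC array, the NSC groups overlapped, and the GSC arrays were tightly grouped. The fall was 12.2-fold against wild-type NSC (log2 difference -3.61, SE 0.20, adjusted p = 0.002) and 11.6-fold against Nf1-null NSC (log2 difference -3.53, SE 0.20, adjusted p = 0.0024). A second Gbp2 probe set differed by -3.80 and -3.51. Gbp2 passed in both comparisons under all 21 alternatives that tested it.

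Gbp3, a neighbour of Gbp2 in the family, gave 1252, 516 and 2962.5 on the wild-type arrays, 1569.7, 1892 and 2358 on the Nf1-null arrays and 629, 473 and 425 on the GSC arrays. All GSC arrays lay below the Nf1-null arrays, while wild-type array 2 fell among the GSC arrays and wild-type array 3 was the highest of all. The difference was -1.93 on the log2 scale, SE 0.57, adjusted p = 0.154 against Nf1-null NSC and a log2 difference of -1.30, SE 0.57, adjusted p = 0.194 against wild-type NSC, and neither passed. Gbp7, a family member that was not on the list of members, fell in GSC, with 1727, 1638 and 2855 on the wild-type arrays, 2513, 3853.5 and 3877 on the Nf1-null arrays and 769, 609.9 and 711.5 on the GSC arrays. No GSC array reached the NSC range (log2 difference -2.27, SE 0.28, adjusted p = 0.0161 and a log2 difference of -1.53, SE 0.28, adjusted p = 0.0224 in the same order). In the RefSeq gene order of mouse chromosome 3 (assembly GRCm38.p6), Gbp5, Gbp7, Gbp3, Gbp2b and Gbp2 follow each other.

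Promoters were read because the ISRE is where the interferon factor binds, and its part in the differences described here was not tested. The 300 bases from 250 before to 50 after each RefSeq start (GRCm38.p6) were searched on both strands for the ISRE, written as TTTC, any 2 bases and TTTC, and for the GAS element of the type II response, TTCNNNGAA. The 2 patterns can overlap, and a match is a description of letters. Counted by gene, with a gene holding a pattern if any of its listed starts does, the ISRE pattern was in 3.99% of 27025 genes and in 13 of the 26 measured members that have an entry, and the GAS pattern in 9.55% of genes and 6 of 26 members. Over the 32851 single promoters the shares were 3.44% and 8.30%. Of the 8 members called against wild-type NSC, 6 have an entry: Gbp2 and B2m hold the ISRE pattern and Ifi35 the GAS pattern. The Gbp2 stretch before the start, chr3:142620413-142620662 on the plus strand, is printed because Gbp2 passed the threshold and holds the ISRE pattern, with the match in capitals.

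Gbp2: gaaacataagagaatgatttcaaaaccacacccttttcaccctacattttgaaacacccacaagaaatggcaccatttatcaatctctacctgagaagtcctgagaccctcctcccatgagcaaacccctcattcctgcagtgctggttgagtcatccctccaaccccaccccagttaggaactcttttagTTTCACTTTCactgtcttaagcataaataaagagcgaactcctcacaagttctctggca

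Shorter stretches of 4 members that did not pass are given to show the same pattern beside that of Gbp2, with the ISRE matches in capitals, and were chosen after their values were seen. Gbp3 lies at chr3:142559989-142560024 and Ifit1 at chr19:34640775-34640823, both on the plus strand. Ifit3 lies at chr19:34583363-34583426 on the plus strand and Ifitm2 at chr7:140955988-140956017 on the minus strand. Gbp3, Ifit1 and Ifit3 each hold 2 matches, which overlap in Gbp3.

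Gbp3: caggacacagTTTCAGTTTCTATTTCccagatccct
Ifit1: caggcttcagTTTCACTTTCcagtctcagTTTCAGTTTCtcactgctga
Ifit3: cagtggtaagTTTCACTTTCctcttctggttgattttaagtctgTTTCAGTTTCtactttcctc
Ifitm2: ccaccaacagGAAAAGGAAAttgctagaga

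The Mx proteins are dynamin-like GTPases that block viruses. Neither Mx1 nor Mx2 had an entry among the protein-coding genes of the RefSeq gene order used here. Whether these cells make a working Mx protein was not tested, and the signals are of transcripts only. Mx2 was dim, among the dimmest 25% of genes by mean signal, and gave 199.7, 77.9 and 358 on the wild-type arrays, 118.5, 61.3 and 61.8 on the Nf1-null arrays and 35.6, 49.1 and 27.3 on the GSC arrays. The GSC arrays lay below every NSC array, and wild-type array 3 was far above the rest of its group. Mx2 fell against wild-type NSC (log2 difference -2.26, SE 0.55, adjusted p = 0.0465), and this call was kept in 6 of 20 alternatives, with adjusted p from 0.034 to 0.143. Mx1, also dim, gave 7.4, 111 and 66.3 on the wild-type arrays, 17.1, 10.2 and 128 on the Nf1-null arrays and 61, 133 and 93 on the GSC arrays, with overlap in every comparison and a standard error of 1.17. Oasl2, related to the RNA-sensing oligoadenylate synthetases, gave 88.8, 73.3 and 60.3 on the wild-type arrays, 64.3, 17.5 and 66.6 on the Nf1-null arrays and 184, 96.3 and 83.1 on the GSC arrays. Its GSC arrays lay above the Nf1-null arrays without passing (log2 difference 1.40, SE 0.54, adjusted p = 0.256).

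Ifi27, a small hydrophobic membrane protein strongly induced by type I interferon, rose in GSC. Its signals were 1899, 2514 and 2339 on the wild-type arrays, 1978, 2330.2 and 2315 on the Nf1-null arrays and 5233, 9489 and 10816.5 on the GSC arrays. GSC array 1 was the lowest of its group and still far above the highest NSC array, and the NSC groups overlapped. The rise was 1.86 on the log2 scale, SE 0.28, adjusted p = 0.0151 against wild-type and a log2 difference of 1.88, SE 0.28, adjusted p = 0.029 against Nf1-null NSC. With the replicate block in the NSC arrays the second comparison gave an adjusted p of 0.0653, within a range of 0.0028 to 0.111 over its alternatives. A second probe set differed by 1.88 and 1.85. The neighbouring family member Ifi27l2a was dim, at 112, 6.8 and 14.4 on the wild-type arrays, 108, 29.2 and 125 on the Nf1-null arrays and 190.5, 557.5 and 724 on the GSC arrays, and its GSC arrays lay above the NSC arrays (log2 difference 4.16, SE 1.06, adjusted p = 0.0511).

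Ifi35, which regulates innate signalling with its partner NMI, gave 217, 182 and 249 on the wild-type arrays, 404, 307 and 219 on the Nf1-null arrays and 420.4, 880.0 and 734 on the GSC arrays. On this probe set every GSC array was above every NSC array, by a narrow margin for GSC array 1. It rose against wild-type NSC (log2 difference 1.59, SE 0.33, adjusted p = 0.0311) and did not pass against Nf1-null NSC (log2 difference 1.11, SE 0.33, adjusted p = 0.161). With the replicate block in the NSC arrays the adjusted p against wild-type was 0.0577, and it ranged from 0.0115 to 0.154 over 21 alternatives. A less bright Ifi35 probe set differed from wild-type NSC by 0.78 and a very dim one by 1.84. On the less bright one GSC array 1 (220.4) lay below wild-type array 3 (255.5) and Nf1-null array 1 (256.5).

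The interferon-induced transmembrane proteins, which hinder fusion of viruses with endosomes, include Ifitm2 and Ifitm3, which had the largest positive differences of the measured members between the NSC groups. Ifitm2 gave 1535, 1805 and 2301.5 on the wild-type arrays, 3794, 5474 and 4916.5 on the Nf1-null arrays and 2790.5, 4553 and 5403 on the GSC arrays. All Nf1-null and GSC arrays lay above all wild-type arrays, and these 2 groups overlapped. The difference of Nf1-null from wild-type NSC was 1.33 on the log2 scale, SE 0.29, adjusted p = 0.13, not past the threshold, with adjusted p from 0.0229 to 0.373 and a call in 4 of 23 alternatives. Against wild-type, GSC was higher without passing (log2 difference 1.14, SE 0.29, adjusted p = 0.0513). Ifitm3 gave 3246, 2713 and 3425 on the wild-type arrays, 7792, 11090.1 and 5906 on the Nf1-null arrays and 3147, 9796 and 7912 on the GSC arrays. Its Nf1-null arrays were all above the wild-type arrays, and GSC array 1 lay in the wild-type range while GSC arrays 2 and 3 were far above it (log2 difference 1.36, SE 0.43, adjusted p = 0.199 between the NSC groups). Ifitm1, a family member outside the list of members, had a difference of the opposite sign, with Nf1-null arrays wholly below the wild-type arrays at 216, 202 and 189.5 on the wild-type arrays, 175, 46.8 and 107.5 on the Nf1-null arrays and 160.3, 87 and 161 on the GSC arrays (log2 difference -1.07, SE 0.47, adjusted p = 0.306, not past the threshold).

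The remaining effectors differed less or varied more between arrays. Bst2, or tetherin, which holds budding virus at the cell surface, gave 172, 336 and 350.0 on the wild-type arrays, 254, 145 and 292.5 on the Nf1-null arrays and 152, 23.4 and 251 on the GSC arrays. Its groups overlapped in every comparison, and GSC array 2 was far below all others. The IFIT proteins bind foreign RNA. Ifit2 gave 1953.5, 2093 and 2299.5 on the wild-type arrays, 1729, 792 and 1831.5 on the Nf1-null arrays and 2584, 2803 and 2372 on the GSC arrays, with GSC above both NSC groups and Nf1-null below wild-type on every array. Ifit3 gave 311, 489 and 467 on the wild-type arrays, 301, 348 and 345 on the Nf1-null arrays and 427, 845 and 681 on the GSC arrays. In GSC both were above the Nf1-null arrays without overlap, with a log2 difference of 0.92, SE 0.31, adjusted p = 0.202 and a log2 difference of 0.92, SE 0.29, adjusted p = 0.172, and neither passed. Among the 15 members not chosen for array-by-array values by the naming rule (which include Ifit1, Rsad2, Parp14, the sensors, Psmb8 and Psmb9), differences from wild-type NSC in GSC ran from -0.75 to 0.60, a range that the rule itself bounds, since it takes the called members and the most extreme differences. Of the sensors, which detect viral RNA, Ddx58 (RIG-I) differed by 0.20 and Ifih1 (MDA5) by -0.45 there, and of the ubiquitin-like system Usp18, which removes ISG15, by -0.24. Trim25, a ubiquitin ligase of RIG-I, was below both NSC groups on every GSC array on the probe set used. It did not pass against wild-type NSC (log2 difference -0.45, SE 0.17, limma adjusted p = 0.137). Its other probe sets did not share this fall. A less bright one differed from wild-type NSC by -0.05, with overlapping arrays, and a dim one by 1.94.

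**Figure D3:**
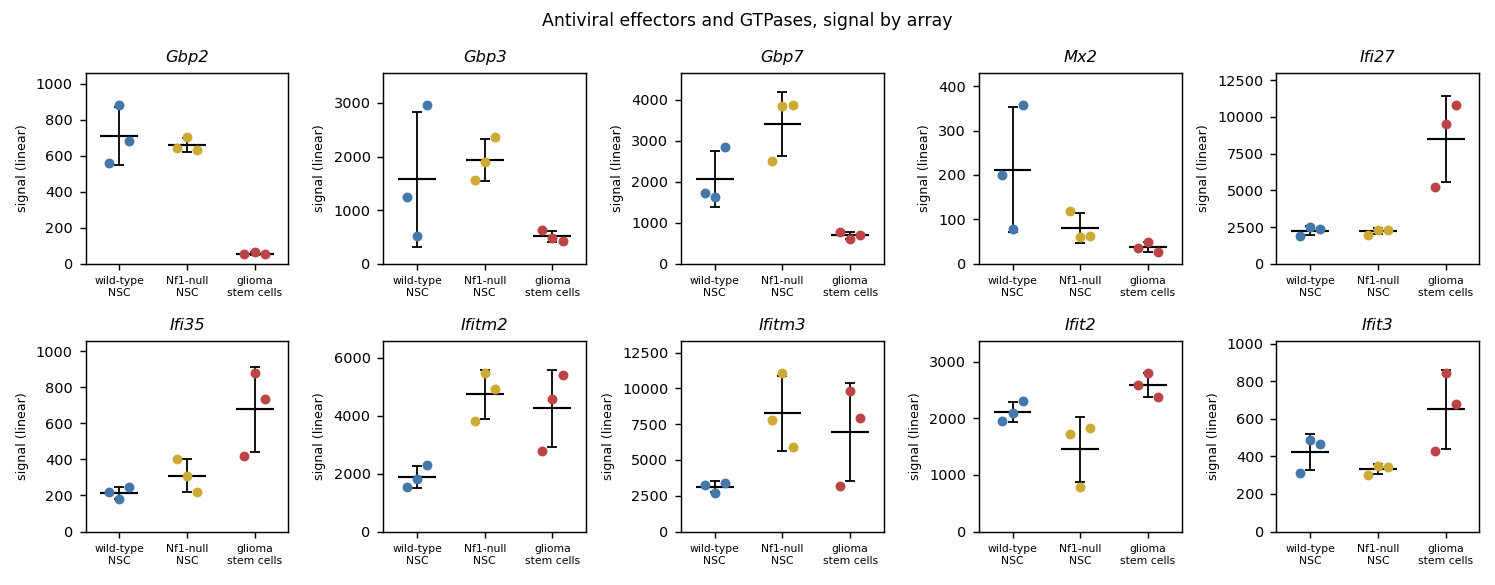
Linear signal by array for 10 effector and GTPase genes (y axis from 0, 1 point per array, horizontal bars are group means, error bars 1 SD, n = 3). Gbp2 and Gbp7 are low in all 3 GSC arrays, Ifi27 and Ifi35 are high, and Ifitm2 is higher in Nf1-null NSC and GSC than in wild-type NSC.

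Class I antigen presentation genes moved in opposite directions within the pathway. B2m, the light chain shared by all class I molecules, gave 16963, 15301 and 17387 on the wild-type arrays, 17269.8, 18503 and 17430.5 on the Nf1-null arrays and 27581, 38435 and 38018 on the GSC arrays. Every GSC array was above every NSC array, and the NSC groups overlapped. B2m rose against wild-type NSC (log2 difference 1.05, SE 0.17, adjusted p = 0.0176) and Nf1-null NSC (log2 difference 0.95, SE 0.17, adjusted p = 0.0439). Its second probe set differed by 1.02 and 0.86. Against Nf1-null NSC the adjusted p was 0.0918 with the replicate block in the NSC arrays, in a range of 0.0047 to 0.166 over 23 alternatives. Its promoter, chr2:122147437-122147686 on the plus strand, holds 1 ISRE match, written in capitals. It is printed because B2m passed the threshold, holds the pattern and is the brightest class I chain measured.

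B2m: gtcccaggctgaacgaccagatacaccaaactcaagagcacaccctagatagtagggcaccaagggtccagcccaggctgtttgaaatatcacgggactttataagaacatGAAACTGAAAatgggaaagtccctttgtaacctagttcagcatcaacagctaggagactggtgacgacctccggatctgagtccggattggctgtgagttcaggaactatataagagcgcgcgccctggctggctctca

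H2-K1, a classical class I heavy chain, gave 4379, 3556 and 5299.7 on the wild-type arrays, 5868, 6220.2 and 6315 on the Nf1-null arrays and 1971, 2022 and 2212 on the GSC arrays. On this probe set GSC lay below both NSC groups and Nf1-null arrays above the wild-type arrays, with no overlap between any 2 groups. On another bright probe set GSC array 3 (2488.1) lay above wild-type array 3 (2472.5) and Nf1-null array 3 (1904.3). H2-K1 fell against Nf1-null NSC (log2 difference -1.57, SE 0.17, adjusted p = 0.0119) and wild-type NSC (log2 difference -1.08, SE 0.17, adjusted p = 0.0176). Its probe set is of a kind that can bind near-identical class I chains, so the value may be split with related genes. The 3 other H2-K1 probe sets differed from wild-type NSC by -0.94, -0.22 and -0.48. With the mean of all probe sets the differences were -0.90 against Nf1-null NSC (adjusted p = 0.0666, range 0.0008 to 0.0666 over 23 alternatives) and -0.68 against wild-type NSC (adjusted p = 0.0627, range 0.0024 to 0.071). Without GSC array 2 the fall did not pass in either comparison, and without GSC array 3 it did not pass against wild-type NSC. H2-D1, the other classical chain measured, gave 3421, 3066 and 3754 on the wild-type arrays, 3169, 2953 and 2349.6 on the Nf1-null arrays and 1683, 2073 and 2367.5 on the GSC arrays, also from such a probe set. All GSC arrays were below all wild-type arrays but overlapped Nf1-null arrays, and the difference was -0.75 on the log2 scale, SE 0.19, adjusted p = 0.053.

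Peptide loading also divided. Tap1, a subunit of the peptide transporter, gave 500.5, 608 and 665.5 on the wild-type arrays, 609, 538 and 649 on the Nf1-null arrays and 952, 1082 and 951.5 on the GSC arrays. Each GSC array was above each NSC array, and Tap1 rose against wild-type NSC (log2 difference 0.76, SE 0.16, adjusted p = 0.0334) but did not pass against Nf1-null NSC (log2 difference 0.73, SE 0.16, adjusted p = 0.0849). Its 3 other probe sets were dim and differed from wild-type NSC by -0.21, 0.08 and 0.52, and the mean of all 4 probe sets by 0.29 (adjusted p = 0.700, range 0.0068 to 0.935 over 23 alternatives). Tap2, the other subunit, gave 360.2, 411 and 457 on the wild-type arrays, 365, 326 and 409 on the Nf1-null arrays and 317, 509.9 and 545 on the GSC arrays, and its groups overlapped in every comparison. Tapbp (tapasin), which holds the heavy chain to the transporter, gave 3315, 4348 and 3255 on the wild-type arrays, 2491, 1494 and 2701 on the Nf1-null arrays and 1511, 1578 and 1224 on the GSC arrays. GSC lay below every wild-type array and overlapped the Nf1-null group, whose array 2 was as low as GSC. Tapbp fell against wild-type NSC (log2 difference -1.34, SE 0.26, adjusted p = 0.027), with an adjusted p of 0.0516 in the replicate block for the NSC arrays, in a range of 0.005 to 0.153 over 23 alternatives. A second, dimmer Tapbp probe set differed by -1.54.

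The immunoproteasome replaces the constitutive peptide-cutting subunits when interferon is present. Psmb8 and Psmb9, its induced catalytic subunits, overlapped between all groups and differed from wild-type NSC by 0.12 and 0.02 in GSC. Psme1, a subunit of the activator cap, gave 6322, 7018 and 4826 on the wild-type arrays, 5977, 5024 and 5054 on the Nf1-null arrays and 3958, 4260.0 and 4402 on the GSC arrays. Its GSC arrays lay below the NSC arrays of both groups, which did not pass (log2 difference -0.51, SE 0.18, adjusted p = 0.12 against wild-type NSC). Of 35 other proteasome genes 0 were called by limma in any comparison (against 0%, 1.75% and 9.06% of all genes between the NSC groups, in GSC against Nf1-null and in GSC against wild-type NSC; 4, 1 and 7 had an unadjusted p under 0.05), and 33 had a positive difference in GSC against wild-type NSC, with a median of 0.19 on the log2 scale beside -0.09 over all genes. The constitutive catalytic subunits Psmb5, Psmb6 and Psmb7 differed by 0.13, 0.15 and 0.22, and the third induced subunit, Psmb10, by 0.17. Of the same 35 genes, 29 had a positive difference between the NSC groups already (median 0.18). In GSC against Nf1-null NSC 20 did (median 0.05). Over all genes 55.5%, 53.2% and 56.1% had a negative difference between the NSC groups, in GSC against Nf1-null and in GSC against wild-type NSC.

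Psmb9, Tap1, Psmb8 and Tap2 follow each other on mouse chromosome 17, where 7 measured members sit. The Tap1 and Psmb9 promoter windows overlap by 275 bases, since the genes run in opposite directions. In GSC against wild-type NSC, Tap1 differed by 0.76, Psmb9 by 0.02, Psmb8 by 0.12 and Tap2 by 0.13.

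**Figure D4:**
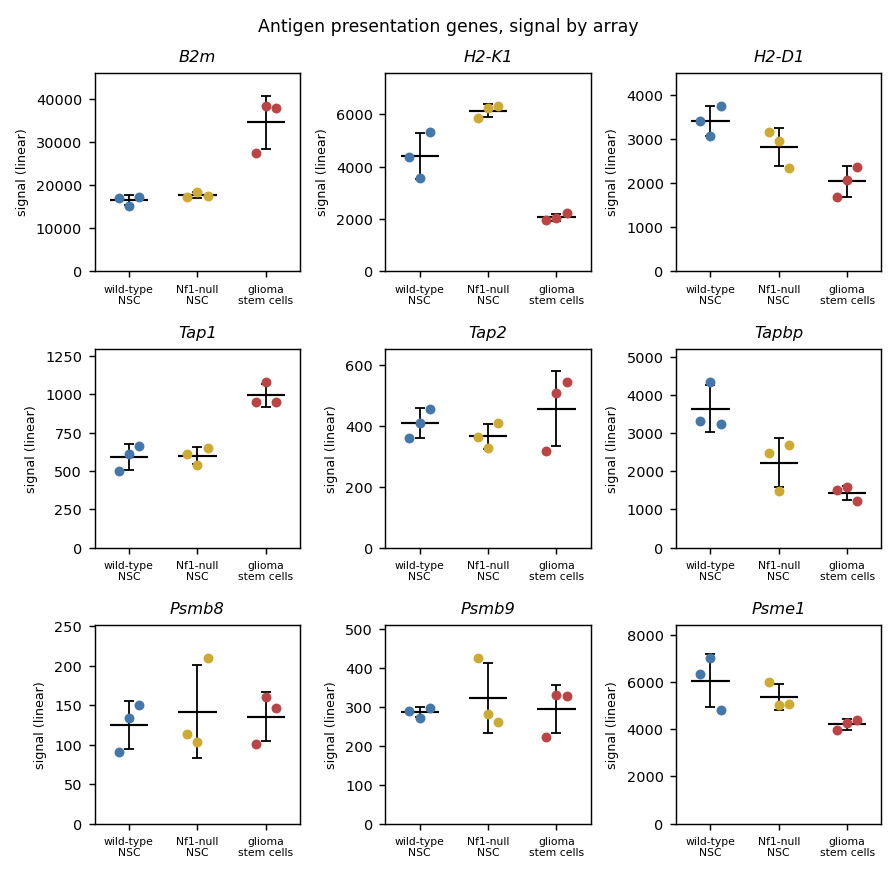
Linear signal by array of 9 antigen presentation genes (y axis from 0, 1 point per array, horizontal bars are group means, error bars 1 SD, n = 3). By group mean, B2m and Tap1 are highest in GSC, H2-K1, H2-D1 and Tapbp lowest there, and Psmb8 and Psmb9 overlap across groups.

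Genes up and down stream of the members were counted from wider lists. Of 10 measured interferon ligands 0 passed in any comparison by limma, with 0, 0 and 1 at an unadjusted p under 0.05 between the NSC groups, in GSC against Nf1-null NSC and in GSC against wild-type NSC, and Ifnb1, the first type I interferon made, gave 146, 135 and 142.5 on the wild-type arrays, 116, 189 and 97 on the Nf1-null arrays and 71, 86 and 121 on the GSC arrays. The receptor chains Ifnar1 and Ifngr1 differed from wild-type NSC by 0.14 and -0.20 in GSC, and the chains Ifnar2, Ifngr2 and Il10rb by 0.74, 0.67 and 0.57, all without passing (limma adjusted p = 0.163, 0.178 and 0.113 for the last 3). Of 10 measured receptor and kinase genes, 2 fell in GSC against wild-type NSC (20%), where 5.6% of all genes fell and 9.06% passed in either direction, and 0 passed in the other 2 comparisons. Jak1, the kinase common to the interferon receptors, gave 4969, 5968 and 5212 on the wild-type arrays, 4349.7, 4475 and 4109 on the Nf1-null arrays and 3202, 3122 and 3132 on the GSC arrays. Every GSC array was below every NSC array, with the Nf1-null arrays in between, and Jak1 fell (log2 difference -0.77, SE 0.13, adjusted p = 0.0209). Jak2, a kinase of the type II receptor, gave 6652, 5534 and 4236 on the wild-type arrays, 4543, 3709 and 3759 on the Nf1-null arrays and 2978, 2725 and 2661 on the GSC arrays, again with GSC below all NSC arrays (log2 difference -0.95, SE 0.20, adjusted p = 0.0305). Of 18 measured nucleic acid sensing genes 3 rose in GSC against wild-type NSC (16.7%), where 3.46% of all genes rose, and 0 passed in the other 2 comparisons.

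Sting1, the adaptor that relays DNA sensing to interferon production, gave 211, 178 and 90.1 on the wild-type arrays, 511, 1134 and 571 on the Nf1-null arrays and 726, 2014 and 3215.5 on the GSC arrays. The lowest GSC array lay above the highest wild-type array, while the GSC arrays overlapped the Nf1-null arrays (log2 difference 3.47, SE 0.60, adjusted p = 0.0206 against wild-type). Cgas, the DNA sensor that makes its messenger, gave 288, 432 and 374 on the wild-type arrays, 692, 1042.5 and 629 on the Nf1-null arrays and 1285, 686 and 796 on the GSC arrays, with wild-type arrays below both other groups (log2 difference 1.30, SE 0.31, adjusted p = 0.0415). Tlr9, a receptor for unmethylated DNA, was dim and also rose against wild-type NSC (log2 difference 2.08, SE 0.42, adjusted p = 0.0281). Tlr4, the endotoxin receptor, was near the floor in NSC and gave 28.1, 34.1 and 71.2 on the wild-type arrays, 1.6, 71.1 and 4.4 on the Nf1-null arrays and 236, 1227 and 1039.6 on the GSC arrays. All GSC arrays were above all NSC arrays, with adjusted p values of 0.062 in the comparison with Nf1-null cells and 0.0853 in that with wild-type cells, so neither passed.

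Of 9 feedback inhibitors, 19 other class I genes and 18 class II genes measured, 0 were called by limma in any comparison, beside 0% of all genes between the NSC groups, 1.75% in GSC against Nf1-null and 9.06% in GSC against wild-type NSC. At an unadjusted p under 0.05 in that last comparison there were 0, 2 and 1. Differences there were not past the threshold for Nlrc5 and Ciita, which switch on class I and class II transcription, at 0.83 and -1.30. Of 66 measured other interferon-induced genes 1 rose and 1 fell in each GSC comparison, a share of 3.03%, where 1.75% of all genes passed against Nf1-null and 9.06% against wild-type NSC. The 1 that rose was Samd9l, an antiviral regulator of translation, with 579, 325.5 and 590.1 on the wild-type arrays, 365, 182 and 443 on the Nf1-null arrays and 1194, 2392 and 2206 on the GSC arrays. All GSC arrays lay above all NSC arrays (log2 difference 2.58, SE 0.43, adjusted p = 0.0375 against Nf1-null and a log2 difference of 1.94, SE 0.43, adjusted p = 0.0357 against wild-type NSC). The 1 that fell was Gbp7. The median difference of those 66 genes in GSC was 0.06 against wild-type NSC beside -0.09 over all genes.

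**Figure D5:**
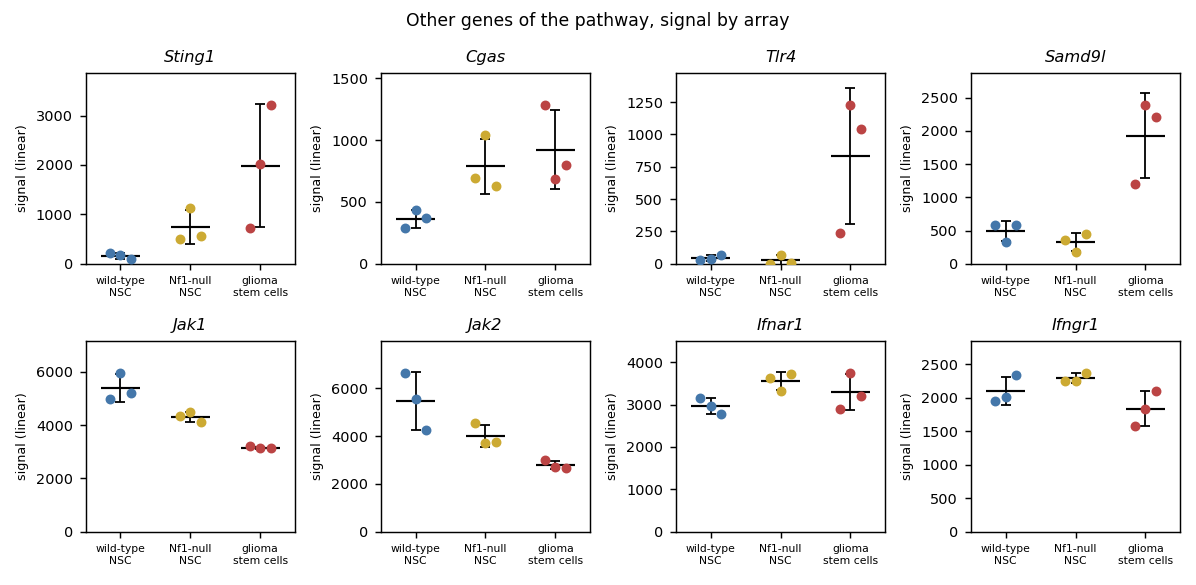
Linear signal by array of 8 pathway genes outside the members (y axis from 0, 1 point per array, horizontal bars are group means, error bars 1 SD, n = 3). By group mean, Sting1, Tlr4 and Samd9l are highest in GSC, Jak1 and Jak2 lowest there, and the Ifnar1 and Ifngr1 differences from wild-type NSC in GSC are 0.14 and -0.20 on the log2 scale.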

How the data were processed

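RNA of 9 mouse cell samples (3 per group) was measured on Affymetrix arrays from 100 ng of total RNA, with biotin-labelled cRNA, per the labels' protocols. The authors deposited linear intensities of probe sets; which software produced these intensities is not given in the labels. On each array the mean of probe sets, without the lowest and highest 2%, was 1500, so scaling removes differences in total RNA. Of 45101 probe sets, 34945 carried 1 gene symbol and entered the tests, leaving 18193 genes, each by its probe set of highest mean log2 signal.

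Signals were tested as log2(value + 1) in limma 3.58.1 (R 4.3.3), with 3 group means over all 9 arrays, empirical Bayes moderation without a trend, two-sided, and Benjamini-Hochberg adjustment over all genes at 0.05. The pseudocount of 1 affects dim genes, whose SD between arrays is largest. Fold values are powers of 2 of these differences. Members and lists were chosen with earlier results of these data known, and those lists may have been chosen after the data were seen. Array values are printed for members past the threshold, for the 3 highest and 3 lowest differences of each comparison and for the 5 members of highest mean signal; H2-D1, Ifit2, Ifit3, Tap2 and Ifi27l2a were added after their values were seen. Promoter sequences are from RefSeq (GRCm38.p6). NSC arrays of equal replicate number had deviations from group means that correlated at 0.64, 0.24 and 0.59 over genes above the median brightness. Over all genes the values were 0.13, 0.05 and 0.17. Between NSC and GSC arrays of equal number they ran from 0.05 to 0.30 over the brighter genes. Arrays of unequal number were not compared and the labels state no pairing, so whether the NSC arrays are paired is not settled. Alternatives changed the scaling, pseudocount, probe set rule, filter, moderation, block and arrays.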

Additional observations from a re-analysis of the deposited data

How the results depend on the processing

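Each result was recomputed under up to 23 other settings (20 or 21 for dim members, which the brightness filters leave out), of which 3 were chosen after seeing the data: the probe set with the highest mean linear signal, the replicate block in the NSC arrays only, and that block with genes above the median brightness. Between the NSC groups the count of 0 called members stayed 0 with any 1 array left out. It became 1 (Ifitm2) with genes above the median brightness, without and with the NSC block, with a mean-variance trend, and with trend and robust moderation. For GSC against Nf1-null NSC the count of 4 became 1 to 4 with an array left out. It was highest, at 6, with genes above the median brightness and the NSC block, and became 2 with averaged probe sets, the largest-variance probe set, only the 6 arrays compared or the replicate block in the NSC arrays. Against wild-type NSC the count of 8 became 1 to 9 with an array left out, at most 10 (pseudocount 16, the trend fits, and brighter genes with the NSC block), 3 with averaged probe sets, 4 with the largest-variance probe set, 5 with the replicate block in all 9 arrays and 5 with only the 6 arrays compared. The median member difference against Nf1-null NSC was -0.34 with genes above the median brightness, without and with the NSC block. With an array left out it ran from -0.27 to 0.11, and from -0.24 to 0.15 against wild-type NSC. The replicate block in the NSC arrays ended the calls of B2m and Ifi27 against Nf1-null NSC and of Ifi35 and Tapbp against wild-type NSC, and no other call of the members.

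Signs turned mostly for small differences between the NSC groups that had not passed. Gbp2 gave 0.0053 and Ifi27 gave 0.0607 after shifting arrays to one median. Ifi27 also gave 0.0017 after quantile normalization, 0.006 with averaged probe sets and 0.0338 with the largest-variance probe set, where Tap1 gave -0.85. With an array left out, the NSC difference ran from -0.63 to 0.0017 for Bst2, -0.23 to 0.0932 for Gbp2, -0.0095 to 1.25 for Gbp3, -0.14 to 0.0629 for Ifi27, -1.55 to 0.32 for Mx1 and -0.0924 to 0.11 for Tap1. For GSC against Nf1-null NSC it ran from -0.39 to 0.0856 for Ifitm2, -0.68 to 0.14 for Ifitm3 and -0.98 to 0.31 for Irf7. Of the 12 called differences 1 turned, Tap1 in GSC against wild-type NSC, at -0.21 with the largest-variance probe set, a dim one.

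The median SD of a gene between arrays was 1.12 on the log2 scale in the dimmest 25% of genes, where Mx1, Mx2 and Oasl2 lie, and 0.20 in the brightest 25%, which limits what 3 arrays a group can show for these members. The counts under other settings are given without the share of all genes called in each. The cause of the changes with single arrays was not tested.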

Other observations

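Lists without a called gene held a few members with large but variable differences. Among the ligands, Ifna1 gave 167, 296 and 223 on the wild-type arrays, 67.7, 156 and 46.6 on the Nf1-null arrays and 201, 179 and 35.3 on the GSC arrays, with overlap of GSC with both NSC groups, and Ifng, the type II interferon, was dim, at 69.2, 8.6 and 6.3 on the wild-type arrays, 32.3, 38.5 and 41.4 on the Nf1-null arrays and 16.2, 78.3 and 26.6 on the GSC arrays. Socs3, a feedback inhibitor of JAK signalling, gave 1227.5, 669 and 1106 on the wild-type arrays, 2268.5, 2338 and 1111 on the Nf1-null arrays and 599.6, 1193 and 1115.5 on the GSC arrays. Nf1-null arrays 1 and 2 were the highest of the 9, while array 3 lay within the wild-type range, and the difference between the NSC groups did not pass (log2 difference 0.90, SE 0.41, adjusted p = 0.323).

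Among other class I genes, the dim H2-Bl gave 97.1, 159 and 154 on the wild-type arrays, 6.6, 119 and 96.4 on the Nf1-null arrays and 31.1, 36.4 and 8 on the GSC arrays, with all GSC arrays below all wild-type arrays (log2 difference -2.60, SE 1.06, adjusted p = 0.169). Ciita, the switch for class II genes, gave 195.5, 217 and 158.5 on the wild-type arrays, 59.5, 205 and 119.6 on the Nf1-null arrays and 100.0, 72.9 and 60.7 on the GSC arrays, with GSC below wild-type on every array (log2 difference -1.30, SE 0.43, adjusted p = 0.102). Of the proteasome genes, Psme4, a nuclear activator cap, gave 11149.7, 10723 and 8820.1 on the wild-type arrays, 9648, 8227 and 7972 on the Nf1-null arrays and 7346, 6796 and 6251 on the GSC arrays, with GSC below both NSC groups (log2 difference -0.59, SE 0.16, adjusted p = 0.0643), the reverse of the sign that 33 of 35 genes of its list had. None of these differences passed the limma test, and their spread between arrays limits what can be read from them.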
